A study of Mus musculus with 5 samples.

Results

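The genes described here encode citrate synthase and 8 further subunits or enzymes of the tricarboxylic acid (TCA) cycle: Cs, Idh2, Idh3a, Idh3b, Idh3g, Ogdh, Dlst, Suclg1 and Mdh2. They were taken by exact gene symbol, and all 9 were found among the 11048 named genes of the table and among the 10542 genes tested. Liver RNA was sequenced from mice of the db/db genotype, which lack a working leptin receptor and become obese and diabetic. Both groups carried that genotype, and no lean animals were compared. One group (3 libraries) received vehicle, and the other (2 libraries) was given SR4 by oral gavage (10 mg/kg, 5 weeks), each after 1 week of acclimatization. The series title calls SR4 a fatty acid-activated proton transporter. The comparison asks how SR4 changed liver expression, here of the enzymes that feed and run the cycle. The labels give no age and do not tie each library to its own animal, so p-values measure the spread between these libraries, which may be technical.

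The TCA cycle runs in the mitochondrial matrix and burns the acetyl groups made from sugars, fats and amino acids. Citrate synthase joins acetyl-CoA to oxaloacetate to make citrate. Isocitrate dehydrogenase and the 2-oxoglutarate dehydrogenase complex later carry the carbon to succinyl-CoA, and succinyl-CoA synthetase, succinate dehydrogenase, fumarase and malate dehydrogenase return it to oxaloacetate. In liver, citrate also leaves the mitochondrion as the source of cytosolic acetyl-CoA for fatty acid synthesis, and intermediates are drawn off for glucose and amino acid metabolism.

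The library sizes recovered from the deposited values ran from 22878374 to 28113096 reads, with SR4 within the vehicle range except for SR4 1. Normalised counts are deposited values divided by a TMM scaling factor, and fold changes are log2 SR4 over vehicle after adding 1. With limma, 138 of 10542 genes (1.31%) had an adjusted p under 0.05, with 46 (0.436%) higher and 92 (0.873%) lower in SR4. Leaving out vehicle 2, vehicle 3 or SR4 2 reduced that count to 8, 5 or 7. An unadjusted p under 0.05 was found for 2250 genes (21.3%). The liver label was checked against 9 hepatocyte markers, whose summed level was 2288000 to 3003000 normalised counts in vehicle and 3194000 and 2628000 in SR4 1 and 2. Of these, Tat, a tyrosine-degrading enzyme, rose (log2 fold change 2.1, adjusted p = 0.0337), and the other 8 did not pass. Tat did not pass without vehicle 2, vehicle 3 or SR4 2 (adjusted p = 0.0798, 0.0804 and 0.146).

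Of the 9 genes, Cs was the 1 that passed, lower in SR4, beside 0.873% of all genes tested. It fell 1.84-fold, a call that was lost with limma-voom on recovered reads (adjusted p = 0.057) and without any 1 of the 5 libraries (adjusted p from 0.0504 to 0.18). Fitted changes above 0 were found for 6 of the 9, beside 48.9% of all genes tested. The median log2 fold change of the 9 was 0.17, beside -0.01 over all genes tested. Both SR4 libraries lay above the vehicle range for 4 of the 9 genes (Idh2, Idh3b, Idh3g and Suclg1), beside 21.5% of the 10542 genes. Both lay below it for Cs alone among the 9, beside 20.2% of the 10542 genes. The other 4 (Idh3a, Ogdh, Dlst and Mdh2) overlapped. Positions against the vehicle range depended on the scaling. With equal totals in place of TMM factors, 3 of the 9 lay above it (12.1% of all genes tested) and Cs lay below it (31.8%), while Idh3g overlapped. The plot of counts by library shows each of the 9.

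**Figure D1:**
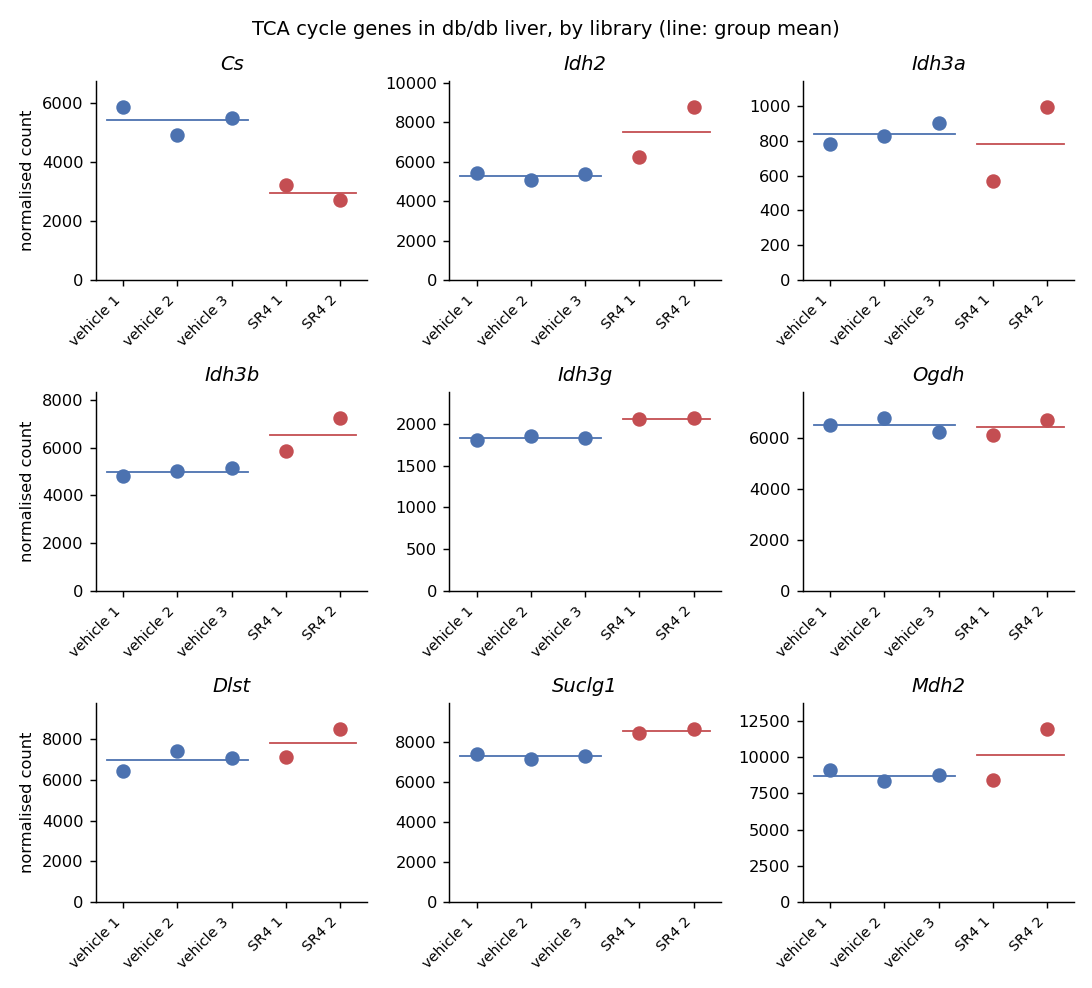
Normalised counts (y axis, from 0) of the 9 genes in each of the 3 vehicle libraries (blue) and 2 SR4 libraries (red), with a line at each group mean. Cs is at 2710 and 3205 in SR4 against 4919 to 5861 in vehicle, while Idh3a, Ogdh, Dlst and Mdh2 overlap between the groups.

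Cs lies on chromosome 10 (128337734 to 128362479, + strand, GRCm38) and is annotated as protein-coding. Its normalised counts were 5861, 4919 and 5497 in vehicle 1, 2 and 3, and 3205 and 2710 in SR4 1 and 2. Both SR4 libraries were below every vehicle library. The mean fell from 5426 ± 475 (SD, n = 3) to 2958 ± 350 (SD, n = 2), a log2 fold change of -0.88 (SE 0.14, 95% interval -1.21 to -0.55, limma adjusted p = 0.0453). Its p ranked 91 among the 138 called. Over the 5 fits that left out 1 library, the log2 fold change lay between -1.0 and -0.76, with the smallest adjusted p (0.0504) without SR4 1 and the largest (0.18) without SR4 2.

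Part of the Cs count appeared to be shared with Csl, a single-exon citrate synthase-like gene on the same chromosome (99757706 to 99759658, - strand, GRCm38). Csl was chosen after its values were seen. Its pattern was also the most like that of Cs, with predicted or unnamed genes (Gm, Rik) left out. Its recovered reads were 648, 536, 536, 369 and 284 in vehicle 1, 2 and 3 and SR4 1 and 2. These made 10.8, 10.3, 10.7, 11 and 10.6% of the Cs reads in the same libraries, so the ranges of the groups overlapped. Neither gene had whole reads, but their sums were whole within 0.02 reads in all 5 libraries, at 6661, 5750, 5561, 3708 and 2969. Of 11047 genes set beside Cs, Csl was the 1 for which this held. Whole sums with fractional parts are what dividing single reads between both genes gives, though the sources used here do not name the counter. Csl had a log2 fold change of -0.85 (limma adjusted p = 0.0573), and the sum of Cs and Csl one of -0.88 (adjusted p = 0.0462). Because Csl made a nearly constant percent of Cs, the sum could differ little from Cs alone and is no separate check. The files do not tell how much of any shared signal came from either gene.

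**Figure D2:**
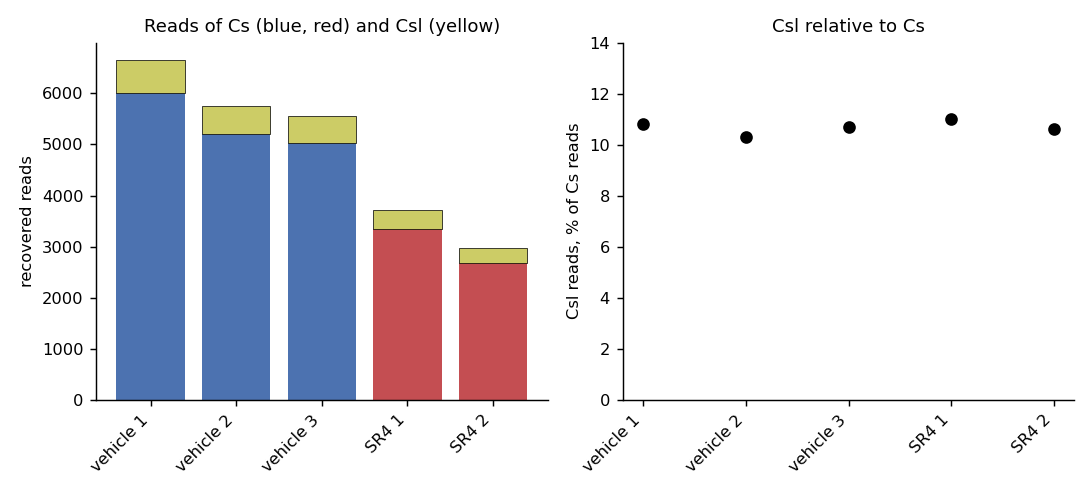
Left, recovered reads (y axis) of Cs in vehicle (blue) and SR4 (red) libraries with Csl stacked on top (yellow). Right, Csl reads as a percent of Cs reads, which run from 10.3 to 11 in the 5 libraries.

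The coding sequences of both genes aligned over 1392 bases with 101 differences (92.7% identity). Of 1343 windows of 50 bases, 115 (8.6%) were identical in both, and the longest identical run was 92 bases. The stretch around that run is printed because a read lying wholly within the run would match both genes, though no reads were examined. It covers coding bases 1010 to 1159, at chr10:128359525-128360082 (+ strand, 2 exons joined) for Cs and at chr10:99758043-99758192 (- strand) for Csl, from GENCODE transcripts of GRCm38. Capitals mark the 9 bases that differ.
Cs: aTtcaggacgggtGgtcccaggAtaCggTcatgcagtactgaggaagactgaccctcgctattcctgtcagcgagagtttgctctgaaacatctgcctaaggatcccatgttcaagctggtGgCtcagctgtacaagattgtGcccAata
Csl: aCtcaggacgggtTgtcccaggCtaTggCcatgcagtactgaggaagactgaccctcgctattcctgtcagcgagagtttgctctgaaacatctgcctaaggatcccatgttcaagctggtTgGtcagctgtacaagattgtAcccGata
The differences sit near both ends of the stretch, and the middle is the same in both genes. Of the other members, 7 had whole reads in every library, and Ogdh, like Cs, did not. Transcripts of Cs also aligned to the pseudogene Gm48254 (91.9% identity over 469 bases), and those of Ogdh to Ogdhl (77.2% over 2701 bases). Mdh2 aligned to pseudogenes at 75.6 to 79.7% identity. None of these copies was among the named genes, and sharing of reads with them was not tested.

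Ratios of Cs to other genes within a library do not depend on the scaling between libraries. Its ratio to the median of the other 8 genes was 0.988, 0.832 and 0.948 in vehicle 1, 2 and 3, and 0.519 and 0.345 in SR4 1 and 2. As a percent of the 9 genes summed, Cs made 12.2, 10.4 and 11.4 in vehicle and 6.67 and 4.71 in SR4. Both measures were lower in both SR4 libraries than in any vehicle library, and lowest in SR4 2. They are given as descriptions with no test.

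The RefSeq promoter window of Cs (chr10:128337477-128337776, + strand, GRCm38.p6) is printed because Cs is the member that passed. Capitals mark CCAAT boxes (letters CCAAT) and GC boxes (letters GGGCGG), searched on both strands.
Cs promoter: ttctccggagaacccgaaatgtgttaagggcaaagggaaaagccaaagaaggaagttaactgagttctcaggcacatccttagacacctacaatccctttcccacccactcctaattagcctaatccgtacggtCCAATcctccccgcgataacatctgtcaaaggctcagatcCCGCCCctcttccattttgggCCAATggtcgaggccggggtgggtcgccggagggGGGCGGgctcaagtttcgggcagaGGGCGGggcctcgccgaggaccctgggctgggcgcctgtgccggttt
The window held 2 CCAAT boxes and 3 GC boxes, which occurred in 37.4% and 35.7% of 32851 promoter windows of the same length. It held no match to GCGCATGCG (NRF1 core), CCGGAAG (ETS core), AAGGTCA (oestrogen-related receptor element), TCACNCCA (SREBP element) or CACGTG (E-box). Such matches describe letters in this window and nothing about binding.

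Isocitrate dehydrogenase comes in NADP-dependent and NAD-dependent mitochondrial forms. Idh2 (chromosome 7, 80094846 to 80115392, - strand), the NADP-dependent enzyme, had 5431, 5052 and 5371 normalised counts in vehicle 1, 2 and 3 and 6216 and 8773 in SR4 1 and 2. Both SR4 libraries were above the vehicle range, narrowly so with equal totals (5844 in vehicle 1, 5873 in SR4 1). SR4 2 was 1.41 times SR4 1. The log2 fold change was 0.48 (SE 0.17, 95% interval 0.08 to 0.88), which did not pass over all genes (adjusted p = 0.172). It was 0.36 with equal totals. The cytosolic enzyme Idh1 had 11682, 12830 and 12608 in vehicle and 13549 and 11543 in SR4, so that its groups overlapped.

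The NAD-dependent enzyme is built of alpha, beta and gamma subunits, with the catalytic site on the alpha subunit. Idh3a (chromosome 9, 54586334 to 54604661, + strand), the alpha subunit, had 784, 828 and 905 normalised counts in vehicle and 567 and 995 in SR4. SR4 1 was the lowest and SR4 2 the highest of the 5 libraries, and the log2 fold change of -0.16 (SE 0.23, adjusted p = 0.731) turned to 0.25 without SR4 1 and was -0.57 without SR4 2. Idh3b (chromosome 2, 130279309 to 130284547, - strand), the beta subunit, had 4814, 5002 and 5150 in vehicle and 5846 and 7230 in SR4. Both SR4 libraries were above the vehicle range, with a log2 fold change of 0.38 (SE 0.14, 95% interval 0.05 to 0.71) that did not pass (adjusted p = 0.182). That change was 0.26 with equal totals. Exons of Idh3b overlap those of Nop56 on the opposite strand by 5 bases, and the library kit does not keep the strand. Nop56, chosen after its values were seen, had 318 to 409 normalised counts in the 5 libraries. Idh3g (chromosome X, 73778963 to 73786897, - strand), the gamma subunit, had 1803, 1847 and 1828 in vehicle and 2052 and 2066 in SR4. The libraries within each group lay close together and the groups did not overlap, but with equal totals they overlapped (1940 in vehicle 1, 1939 in SR4 1). The log2 fold change of 0.17 (SE 0.10, 95% interval -0.06 to 0.40) did not pass (adjusted p = 0.366) and was 0.05 with equal totals. The ratio of Idh3a to Idh3b was 0.163, 0.166 and 0.176 in vehicle and 0.097 and 0.138 in SR4, without overlap, and that of Idh3a to Idh3g overlapped.

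The 2-oxoglutarate dehydrogenase complex oxidises 2-oxoglutarate to succinyl-CoA. Ogdh (chromosome 11, 6291633 to 6356642, + strand), its E1 subunit, had 6495, 6774 and 6225 normalised counts in vehicle and 6124 and 6696 in SR4. The SR4 libraries overlapped the vehicle range, and the log2 fold change was -0.02 (SE 0.12, 95% interval -0.32 to 0.27, adjusted p = 0.932). Its sign turned without vehicle 2 (0.01) and without SR4 1 (0.04), and it was -0.14 with equal totals. Dlst (chromosome 12, 85110833 to 85134845, + strand), the E2 subunit that carries the lipoyl group, had 6429, 7407 and 7069 in vehicle and 7101 and 8474 in SR4. Only SR4 2 was above the vehicle range, and the log2 fold change was 0.15 (SE 0.14, 95% interval -0.19 to 0.49, adjusted p = 0.580), or 0.04 with equal totals. Within a library the ratio of Ogdh to Dlst was 1.01, 0.915 and 0.881 in vehicle and 0.862 and 0.79 in SR4.

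Suclg1 (chromosome 6, 73248382 to 73276911, + strand) encodes the alpha subunit common to the ATP-forming and GTP-forming succinyl-CoA synthetases. It had 7431, 7189 and 7312 normalised counts in vehicle and 8475 and 8656 in SR4. The SR4 libraries were both above the vehicle range, narrowly so with equal totals (7996 in vehicle 1, 8007 in SR4 1). The log2 fold change of 0.22 (SE 0.12, 95% interval -0.06 to 0.51) did not pass (adjusted p = 0.334) and was 0.11 with equal totals. The ratio of Suclg1 to Suclg2, the GTP-type beta subunit, was 0.681, 0.682 and 0.671 in vehicle and 0.735 and 0.728 in SR4. Against Sucla2, the ATP-type beta subunit, it overlapped between the groups.

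Mdh2 (chromosome 5, 135778480 to 135790398, + strand), the mitochondrial malate dehydrogenase that regenerates oxaloacetate, had 9080, 8358 and 8739 normalised counts in vehicle and 8437 and 11924 in SR4. SR4 1 lay within the vehicle range and SR4 2 far above it. The log2 fold change was 0.20 (SE 0.18, 95% interval -0.22 to 0.61, adjusted p = 0.555), -0.05 without SR4 2 and 0.08 with equal totals. The cytosolic enzyme Mdh1 had 15086, 20436 and 19522 in vehicle and 25160 and 31849 in SR4, above the vehicle range, with a log2 fold change of 0.63 (SE 0.20) that did not pass (adjusted p = 0.145). The ratio of Mdh2 to Mdh1 was 0.602, 0.409 and 0.448 in vehicle and 0.335 and 0.374 in SR4.

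Levels between genes were compared per kilobase of annotated exons. In vehicle the order was Mdh2 (2450 ± 101 normalised counts per kilobase), Idh2 (2042 ± 78.8), Suclg1 (1583 ± 26.2), Idh3b (1458 ± 49.3), Ogdh (1191 ± 50.3), Cs (939 ± 82.2), Dlst (729 ± 52.0), Idh3g (676 ± 8.15) and Idh3a (165 ± 12.1), all SD with n = 3. Neighbours in this vehicle order did not overlap between libraries, except Dlst and Idh3g. In SR4 (n = 2) Cs was at 512 ± 60.5 per kilobase, after Dlst (815 ± 102) and Idh3g (762 ± 3.72), and so moved from place 6 to place 8. This order depends on the length used. By the longest annotated transcript, Dlst (2164) was already above Cs (1807) in vehicle, and in SR4 Cs (985) was below Ogdh (1553), and its libraries overlapped those of Idh3g (990). Idh3a, with 154 ± 59.7 in SR4, was the lowest of the 9 in each library.

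**Figure D3:**
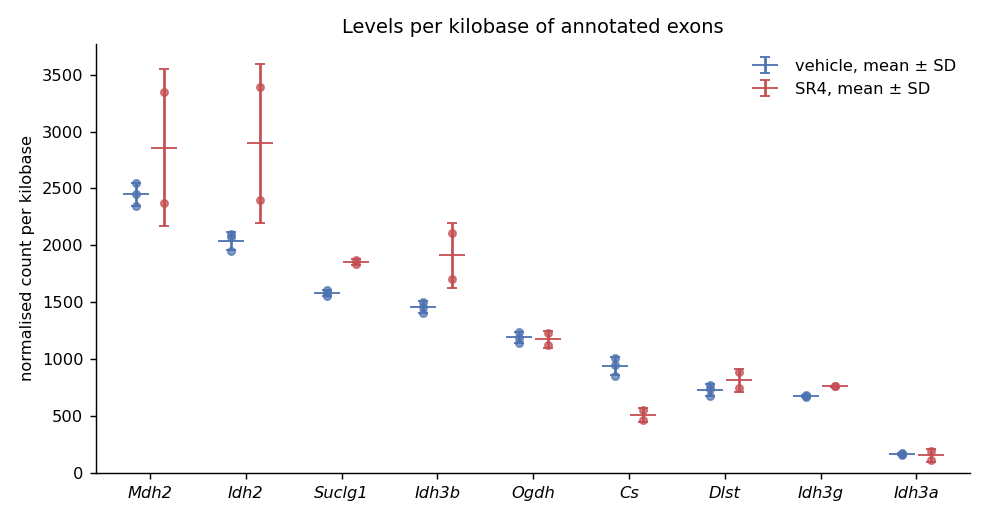
Normalised counts per kilobase of annotated exons (y axis, from 0) for the 9 genes, in order of the vehicle mean. Points are libraries and bars are mean ± SD for vehicle (blue, n = 3) and SR4 (red, n = 2). Cs goes from 939 to 512, below Dlst and Idh3g with this length.

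The 8 other enzyme subunits of the cycle described here included none that passed, and the fitted changes of all 8 were above 0 (median 0.22), beside 48.9% of all genes tested. Both SR4 libraries were above the vehicle range for 6 of the 8, beside 21.5% of all genes tested, and for 3 of the 8 with equal totals, beside 12.1%. Fh1, fumarase, had 6377, 7127 and 5901 normalised counts in vehicle and 7671 and 15027 in SR4. Its log2 fold change of 0.73 (SE 0.28, adjusted p = 0.202) was 1.22 without SR4 1, where it passed (adjusted p = 0.0402), and 0.25 without SR4 2. Sdhb, the iron-sulfur subunit of succinate dehydrogenase, had 6420, 7300 and 7738 in vehicle and 8956 and 11816 in SR4 (log2 fold change 0.52, adjusted p = 0.151). The membrane subunit Sdhc and the flavoprotein Sdha also lay above the vehicle range (log2 fold changes 0.33 and 0.15). Sdhd, the other membrane anchor, overlapped (0.02). Sucla2 and Suclg2 were above the vehicle range (0.28 and 0.11), whereas Dld, the E3 subunit of the oxoacid dehydrogenases, overlapped (0.16). Sucla2, Suclg2 and Sdha overlapped once totals were set equal. Of these 17 cycle genes, 10 lay above the vehicle range, 1 below it and 6 overlapped, where 21.5% of all genes tested lay above and 20.2% below. With equal totals 6 lay above and 1 below, where 12.1% and 31.8% of all genes did.

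The accessory genes of the 2-oxoglutarate dehydrogenase complex and its lipoyl group included none that passed among 6 measured, with a median log2 fold change of 0.22. Dhtkd1, the 2-oxoadipate dehydrogenase, had 834, 1341 and 1091 normalised counts in vehicle and 1786 and 1519 in SR4 (log2 fold change 0.62, adjusted p = 0.159). Gcsh, the lipoyl-carrying H protein of glycine cleavage, had a log2 fold change of 0.29 (adjusted p = 0.225). The lipoyl synthase Lias (0.15) and the lipoyl transferase Lipt2 (0.32) were also above the vehicle range, whereas Lipt1 (0.08) and the adaptor Mrps36 (0.00) overlapped. That put 4 of the 6 above it, beside 21.5% of all genes tested. With equal totals 2 of the 6 did (Dhtkd1 and Gcsh), beside 12.1%, and Lias and Lipt2 overlapped. Of the succinate dehydrogenase assembly factors, 2 of 4 were measured and neither passed. Sdhaf1 was below the vehicle range (log2 fold change -0.58, adjusted p = 0.134) and Sdhaf2 above it (0.25, adjusted p = 0.317). With equal totals Sdhaf1 stayed below it and Sdhaf2 overlapped.

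Outside the mitochondrion, 2 of 6 cytosolic isoenzymes and citrate-using enzymes fell and 0 rose, beside 0.873% and 0.436% of all genes tested. The median was -0.23. Acly, ATP-citrate lyase, which splits exported citrate into acetyl-CoA and oxaloacetate, had 34354, 32907 and 27394 normalised counts in vehicle and 9419 and 12410 in SR4. Both SR4 libraries were far below every vehicle library, and Acly fell 2.91-fold (log2 fold change -1.54, SE 0.19, adjusted p = 0.0337). Me1, the cytosolic malic enzyme that yields NADPH, had 17884, 16705 and 22548 in vehicle and 5237 and 3670 in SR4, again without overlap (log2 fold change -2.11, SE 0.21, adjusted p = 0.0260). Neither Acly nor Me1 passed without vehicle 2, without vehicle 3 or without SR4 2 (adjusted p from 0.0605 to 0.0956). Acss2, the cytosolic acetyl-CoA synthetase, overlapped between groups (log2 fold change -0.48, adjusted p = 0.262), and Aco1, the cytosolic aconitase, lay above the vehicle range (0.23, adjusted p = 0.432). With equal totals Acss2 lay below the vehicle range and Aco1 overlapped. Slc25a1, the carrier that exports citrate, was chosen after its values were seen. Among 7 measured carriers of cycle intermediates, it was the 1 with a fitted change below 0. It had 8688, 8514 and 8634 in vehicle and 6985 and 7370 in SR4, below the vehicle range (log2 fold change -0.27, adjusted p = 0.265).

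Genes for the entry of pyruvate had no member that passed among 11 measured, and the median was -0.17. Both SR4 libraries were below the vehicle range for 6 of the 11, beside 20.2% of all genes tested, and for 7 with equal totals, beside 31.8%. Dlat, the E2 subunit of pyruvate dehydrogenase, had 3202, 2864 and 2755 normalised counts in vehicle and 1894 and 1532 in SR4. The groups did not overlap, and the log2 fold change was -0.79 (SE 0.14, adjusted p = 0.0509). Dlat passed without SR4 1 (adjusted p = 0.0481) and in 4 other alternatives. Pdhb, an E1 subunit, had 4245, 3576 and 3372 in vehicle and 2436 and 2291 in SR4 (log2 fold change -0.66, SE 0.14, adjusted p = 0.0676). Pdha1, Pdk4 and Pdk2 were chosen after their values were seen. Pdha1, the catalytic E1 subunit, had a log2 fold change of -0.28 (adjusted p = 0.271). The kinases that inhibit the complex lay on either side of 0, with Pdk4 at -1.81 (adjusted p = 0.0959) and Pdk2 at 0.67 (adjusted p = 0.136).

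**Figure D4:**
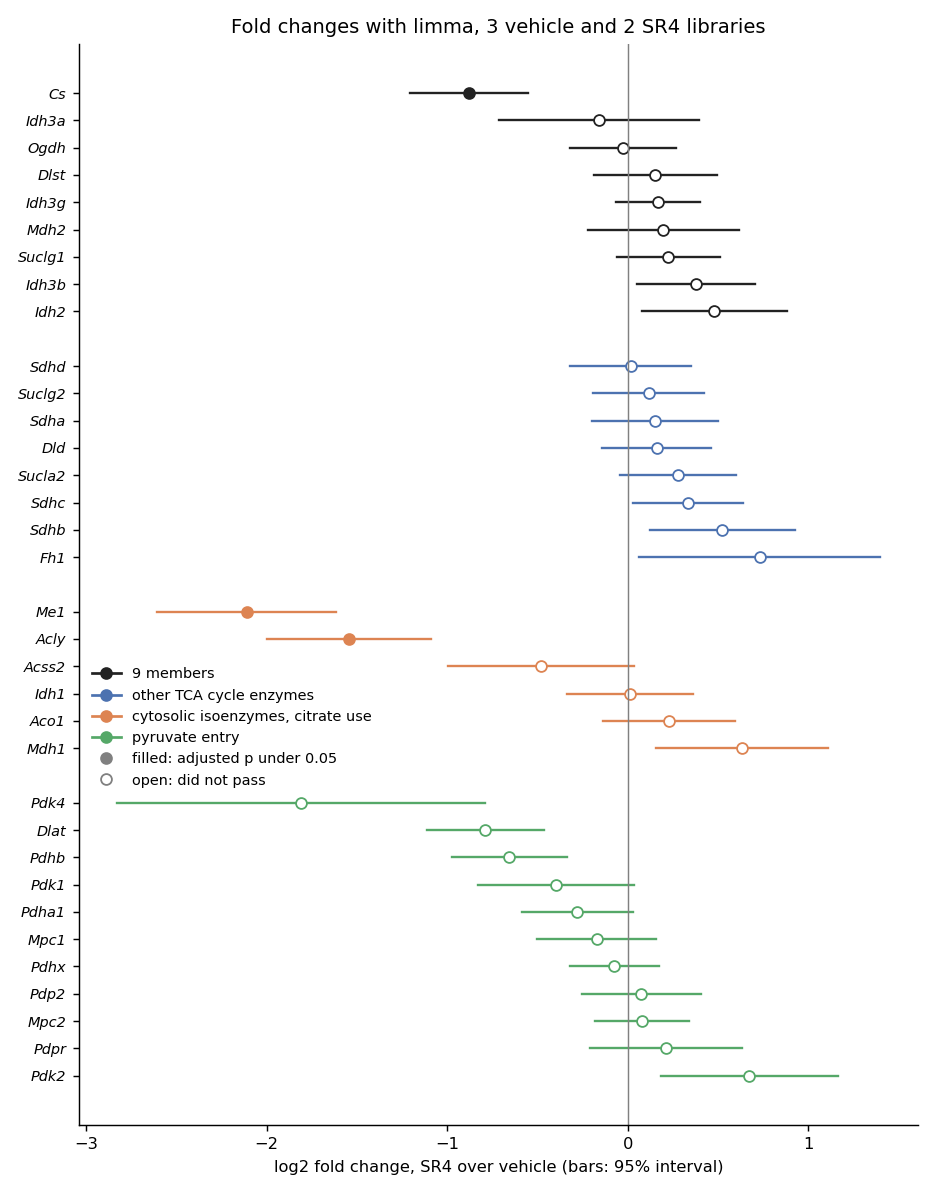
Log2 fold change, SR4 over vehicle (x axis), with 95% intervals from limma, for the 9 genes (black), the other cycle enzymes (blue), cytosolic isoenzymes and citrate users (orange) and pyruvate entry genes (green). Filled points passed an adjusted p of 0.05: Cs at -0.88, Acly at -1.54 and Me1 at -2.11.

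Enzymes that fill or drain the cycle included 1 that rose and 0 that fell among 14 (median 0.35), beside 0.436% and 0.873% of all genes tested. Got1, the cytosolic aspartate aminotransferase, had 3678, 5707 and 6093 normalised counts in vehicle and 20350 and 28774 in SR4. It rose 4.79-fold, without overlap (log2 fold change 2.26, SE 0.26, adjusted p = 0.0337), and did not pass without vehicle 2, vehicle 3 or SR4 2 (adjusted p = 0.0921, 0.0605 and 0.131). None of 7 carriers of cycle intermediates passed, with a median of 0.29 that was 0.17 with equal totals and 0.16 without SR4 2. Fitted changes were above 0 for 6 of the 7, beside 48.9% of all genes tested, and below 0 for Slc25a1. Slc25a13, an aspartate-glutamate carrier, and Slc25a11, the 2-oxoglutarate-malate carrier, had log2 fold changes of 0.48 and 0.29 (adjusted p = 0.155 and 0.232). Nor did any of 11 regulators of mitochondrial enzyme genes pass (median 0.16, 0.04 with equal totals and 0.09 without SR4 2). Ppargc1a, a coactivator of mitochondrial genes, had 159, 264 and 173 in vehicle and 411 and 271 in SR4 (log2 fold change 0.78, adjusted p = 0.180). Sirt3, the mitochondrial deacetylase, had a log2 fold change of 0.39 (adjusted p = 0.155).

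The SR4 libraries differed from each other in these genes. SR4 2 was higher than SR4 1 for 8 of the 9 genes, with Cs as the exception, and for 8 of the 8 other cycle enzyme subunits, beside 49.3% of all genes tested. The median difference from the vehicle mean over the 9 genes was 0.03 in SR4 1 and 0.25 in SR4 2 on the log2 scale. The same held for 15 of 15 genes that track mitochondrial content, none of which passed, with medians of 0.05 in SR4 1 and 0.25 in SR4 2. The pair with the smallest p among these were Tomm40, the import channel of the outer membrane, and Phb2, a prohibitin of the inner membrane, with log2 fold changes of 0.43 and 0.38 (adjusted p = 0.156 and 0.177). Pyruvate entry genes were higher in SR4 2 for 4 of 11. Without SR4 2 the log2 fold changes of Idh2, Idh3b and Dlst were 0.23, 0.23 and 0.03, and without SR4 1 they were 0.73, 0.54 and 0.29.

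**Figure D5:**
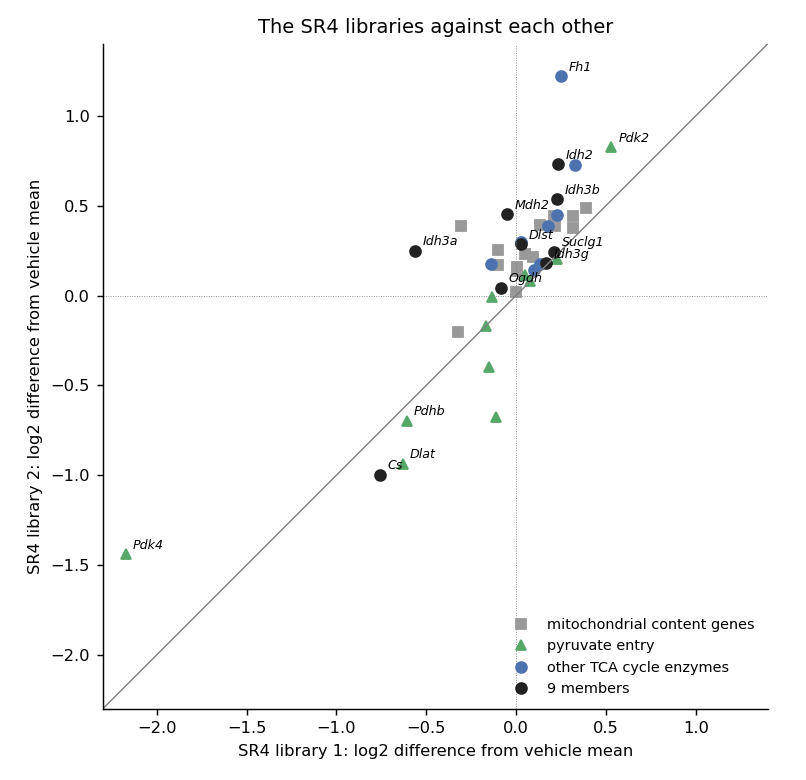
Log2 difference from the vehicle mean in SR4 library 1 (x axis) and SR4 library 2 (y axis) for the 9 genes (black), other cycle enzymes (blue), mitochondrial content genes (grey) and pyruvate entry genes (green), with the line of equality. Of the 17 cycle genes, 16 lie above the line, and Cs lies below it.

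Markers of other liver cells also differed between the SR4 libraries, with lower sums in SR4 2. The hepatocyte marker sum was lower there too (2628000, against 3194000 in SR4 1). In liver tissue, fewer cells of a type and less RNA per cell cannot be told apart. Summed over 9 of 10 Kupffer and myeloid markers, the level was 6805 to 10810 normalised counts in vehicle, 6548 in SR4 1 and 4388 in SR4 2. None of them passed, and all 9 had a fitted change below 0 (median -0.69), beside 5383 of the 10542 genes tested. Cd68 and C1qb had log2 fold changes of -1.35 and -0.98 (adjusted p = 0.108 and 0.163). The 10 stellate and fibroblast markers summed to 8530 to 14270 in vehicle, 9007 in SR4 1 and 6785 in SR4 2, with none passing (median -0.53). Of these Col1a1 and Col1a2 had log2 fold changes of -1.61 and -1.25 (adjusted p = 0.0858 and 0.0953). The 8 endothelial markers summed to 3643 to 5318 in vehicle, 5002 in SR4 1 and 2716 in SR4 2, with none passing (median -0.12). Vwf and Clec4g had log2 fold changes of -0.60 and -0.31 (adjusted p = 0.134 and 0.517). Red cell markers summed to 15690 to 22010 in vehicle, 12540 in SR4 1 and 10590 in SR4 2. Fitted changes were below 0 for 4 of the 5 and above 0 for 1 (0.23). Of the 5, 1 fell, beside 0.873% of all genes tested. It was Hbb-bs, a beta globin (log2 fold change -1.17, limma adjusted p = 0.0337). Hbb-bs did not pass without vehicle 2, vehicle 3 or SR4 2 (adjusted p = 0.088, 0.0605 and 0.131), and its reads may be shared with the near-identical Hbb-bt. Cholangiocyte, lymphocyte, adipocyte and pancreas lists had 1 measured marker each, Spp1, Ptprc, Cfd and Cela1, and none passed (adjusted p = 0.498, 0.227, 0.711 and 0.655). The 5 skeletal muscle markers summed to at most 19.3 normalised counts in any library, and Acta1, Ckm, Myh4 and Tnnt3 were at 0 in at least 1 library. No other marker measured was at 0 in any library. The part of these markers in the values of Cs and of the other cycle genes was not tested.

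The 5 genes whose pattern was most like that of Cs were Csl, Trim7, Serpina3g, Khk and Rnf144b. They were ranked among 10049 tested genes, with predicted or unnamed genes (Gm, Rik) left out. Likeness was the root mean square difference of log2 values over the 5 libraries, each gene centred on its vehicle mean. It was 0.037 for Csl, which appeared to share reads with Cs, and 0.0783, 0.081, 0.0853 and 0.0879 for the others. The SR4 values took part in this choice, so a fall near that of Cs followed from it. The changes and calls given next describe these genes and are no separate result. Khk, the fructokinase ketohexokinase, had 29933, 30215 and 30509 normalised counts in vehicle and 17714 and 14882 in SR4. Its groups did not overlap, and its log2 fold change of -0.90 did not pass (adjusted p = 0.0529). Rnf144b, an E3 ubiquitin ligase, fell (log2 fold change -0.85, adjusted p = 0.0438), whereas Trim7, also a ubiquitin ligase, and Serpina3g, a serine protease inhibitor of a multigene family whose reads may be shared, did not pass (log2 fold changes -0.96 and -0.81, adjusted p = 0.0607 and 0.0984). The call of Rnf144b was lost with limma-voom (adjusted p = 0.0588) and without vehicle 1, vehicle 2, vehicle 3 or SR4 2 (adjusted p = 0.0729, 0.125, 0.0873 and 0.165).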

How the data were processed

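Liver RNA was sequenced in 5 libraries, 3 vehicle and 2 SR4, and the treatment label gave the groups. The design text of the series gives db/db as the genotype. Per the labels' protocols, libraries were made with a TruSeq RNA V2 kit, which keeps no strand. Partek, TopHat2 2.1.1 and GRCm38 appear in the submitters' processing notes. For the counter and annotation, the sources used here give nothing.

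The deposited signal values were read counts brought to 1 library size of 25494249, as the column totals show. Inverting a quantile adjustment with a common dispersion of 0.0767 recovered reads, 85.3% of them whole within 0.02 reads among the 37775 low values checked. Of 11065 rows, 17 held a calendar date in place of a symbol (0.18% of counts) and were left out.

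Values were divided by TMM factors (own implementation), and log2(value + 1) was fitted with limma (mean trend, robust) over genes at 10 or more in at least 2 libraries. P-values were adjusted by Benjamini-Hochberg over all 10542 genes, threshold 0.05. Members, lists and tests were chosen with earlier results of these data known. Every member was named, with all measured genes of 3 further lists (other cycle enzymes, accessories, cytosolic enzymes), except 1 that is not reported here. Other lists gave their passing genes or the 2 with the smallest p. The 5 genes most like Cs were added, predicted or unnamed genes (Gm, Rik) left out. Coordinates and exon lengths came from GENCODE M21, and promoters from RefSeq (8 of 9 members matched). Alternatives were other scalings, filters and pseudocounts, no robust shrinkage, limma-voom, a block for replicate number, and fits leaving out 1 library. The sum of Cs and Csl, and positions against the vehicle range with equal totals, were added after seeing the data. The procedure was tested on simulated data. Software was R 4.3.3, limma 3.58.1, Python 3.11.15, matplotlib 3.10.9 and blastn 2.17.0.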

Additional observations from a re-analysis of the deposited data

How the results depend on the processing

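Cs kept its direction in every alternative run. Its call was lost with limma-voom on recovered reads (log2 fold change -0.88, adjusted p = 0.057; 0 members called and 44 genes in all) and without any 1 library (-1.0 to -0.76; 0 members called), and the count of all genes then ran from 5 to 180. The replicate number as a block gave 475 genes and kept Cs (adjusted p = 0.0396), but the labels do not say that numbers pair libraries, and with 2 pairs (correlations 0.174 and 0.112) the data cannot show it. Scaling to equal totals alone moved the median of all genes from -0.01 to -0.13. It took list medians to 0.0515 (the 9 members), 0.101 (other cycle enzymes), 0.101 (accessories), -0.351 (cytosolic enzymes), -0.289 (pyruvate entry), 0.236 (filling and draining), 0.0422 (regulators), 0.171 (carriers) and 0.0209 (mitochondrial content). It also turned Suclg2 (-0.0026), Sdhd (-0.102) and Idh1 (-0.105), and the block turned Sdhd (-0.0148); none of these passed. Pyruvate entry had 1 call with equal totals, RLE factors, no filter or the block, and filling and draining had 3 with the block. Per kilobase of the longest transcript, vehicle means were 1807 for Cs, 2952 for Idh2, 325 for Idh3a, 2435 for Idh3b, 878 for Idh3g, 1575 for Ogdh, 2164 for Dlst, 2642 for Suclg1 and 5433 for Mdh2. With 1 library left out, log2 fold changes ran from -0.566 to 0.25 for Idh3a, -0.0887 to 0.0447 for Ogdh, -0.0518 to 0.452 for Mdh2, -0.142 to 0.178 for Sdhd and -0.0985 to 0.128 for Idh1. List medians then ran from 0.0256 to 0.25 (members), 0.153 to 0.342 (other cycle enzymes), 0.184 to 0.329 (accessories), -0.333 to 0.00819 (succinate dehydrogenase assembly), -0.249 to -0.0899 (pyruvate entry), -0.317 to -0.152 (cytosolic enzymes), 0.164 to 0.399 (carriers), 0.09 to 0.189 (regulators) and 0.0484 to 0.253 (mitochondrial content), and calls from 0 to 1 in other cycle enzymes and pyruvate entry and 0 to 2 in cytosolic enzymes and in filling and draining. The cause of these shifts was not tested. edgeR and DESeq2 were not run, since 14.7% of the 37775 low values checked were recovered as fractions of a read.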

Other observations

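Of the 9 members, 8 had RefSeq promoter windows. A GC box (GGGCGG) was found for 5 of the 8 (Cs, Dlst, Idh2, Mdh2, Ogdh) and a CCAAT box for 4 (Cs, Idh2, Idh3b, Ogdh), beside 35.7% and 37.4% of all promoter windows. The ETS core CCGGAAG was found for 3 (Dlst, Idh3b, Idh3g), beside 8.86%. Ogdh, with 6 annotated windows, was the 1 member with the NRF1 core GCGCATGCG, the E-box CACGTG or AAGGTCA, beside 1.75%, 7.15% and 4.72%. TCACNCCA was found for 0 of 8, beside 4.36%. Members were counted by gene, over 13 windows in all, whereas the shares are per window, so the units differ. All are counts of letters, with no test.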
